A study of Polistes dominula with 96 samples.

Results

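In the brains of *Polistes dominula*, a paper wasp whose small colonies hold a queen and her workers, 60 genes were low in most individuals and very high in a few. They were chosen on those values. Levels were CPM, the counts of a gene relative to the total of its library, scaled between libraries with the trimmed mean of M-values (TMM). Of 11140 genes, 5809 reached at least 50 CPM in some wasp. These were ranked by the highest CPM divided by the median CPM plus 1, and the 60 of highest ratio were taken after 8 named genes had been set aside. The ratios of the 60 genes ran from 19.9 to 8619.9, against a median of 1.48 over the 5809 genes. The last genes inside the limit were LOC107071326 at 20.1 and LOC107073793 at 19.9, and the first outside were LOC107073753 at 18.9 and Dfd at 18.8.

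Each of the 96 libraries came from the brain of 1 female whose nest was kept in the laboratory. They were 26 queens, from control nests and from nests that then lost their queen, 24 individuals taken 3 days and 34 taken 12 days after their nest had lost its queen, and 12 workers of control nests that kept theirs. The wasps of the queenless nests are called day 3 and day 12 wasps here, and every wasp is named by its group and the replicate number of its title. Day 3 wasps were 3 to 33 days old (median 13), day 12 wasps 3 to 28 (median 18.5) and control workers 1 to 23 (median 11.5). The labels give no age for queens, but by the study's account the foundresses had overwintered and were several months old, so that queens differed from all other groups in age as well as in caste, and age and caste cannot be told apart in their comparison. The wasps came from 34 nests with at most 6 from any of them, so that wasps of the same nest were not independent, and day 3 and day 12 wasps came from different nests. The column name of day 3 wasp 1 reads nest 28, and the wasp is counted here in nest 38.

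Libraries held 7933671 to 14222806 counts in queens, 9961485 to 16476635 in day 3 wasps, 10480464 to 18124755 in day 12 wasps and 10590342 to 16223250 in control workers. The label of brain was checked with 6 neuronal genes, which had counts in all 96 libraries and summed to between 764 and 1902.5 CPM. Genes of other head tissues varied more. The sum of 9 muscle genes ran from 1682.6 to 52767.7 CPM, and that of 7 photoreceptor genes outside the 60 from 204 to 17216.2 CPM. Day 12 wasp 8, which stands apart below, had the most counts of all and ranked 95 of 96 for the neuronal genes.

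An insect head holds the brain together with compound eyes, salivary and other exocrine glands, muscle, fat body and a cuticle that hardens after the adult emerges. Genes that a single cell type uses can be nearly silent in the rest of the head. Products among the 60 genes include opsins and arrestins, which detect and end the light response in photoreceptors. They also include odorant-binding proteins, which carry small hydrophobic molecules outside cells, and cuticle proteins. Cytochrome P450 enzymes, which oxidise hormones, hydrocarbons and foreign compounds, are among them too. Of the 60 genes, 47 had an entry in the reference gene table, 12 had a symbol and 32 had neither a symbol nor a descriptive product name. Entries were found for 78.3% of them and for 91.1% of all genes.

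A burst was defined as a CPM of at least 10 times the median CPM plus 1. The 60 genes gave 294 bursts among 5760 values, or 5.1%. In 16 genes a single wasp was in burst, in 15 genes 2 or 3 wasps were, in 20 genes 4 to 9 were, and in 9 genes 10 or more were. The highest value was at least 2 times the second in 39 genes. Bursts were concentrated in few wasps: 78 wasps had at least 1, 20 had at least 5, and 6 had at least 10. The 5 wasps with most held 80 bursts, or 27.2%. Only 22 wasps held the highest value of any gene, and 4 wasps held that of 32 genes.

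**Figure D1:**
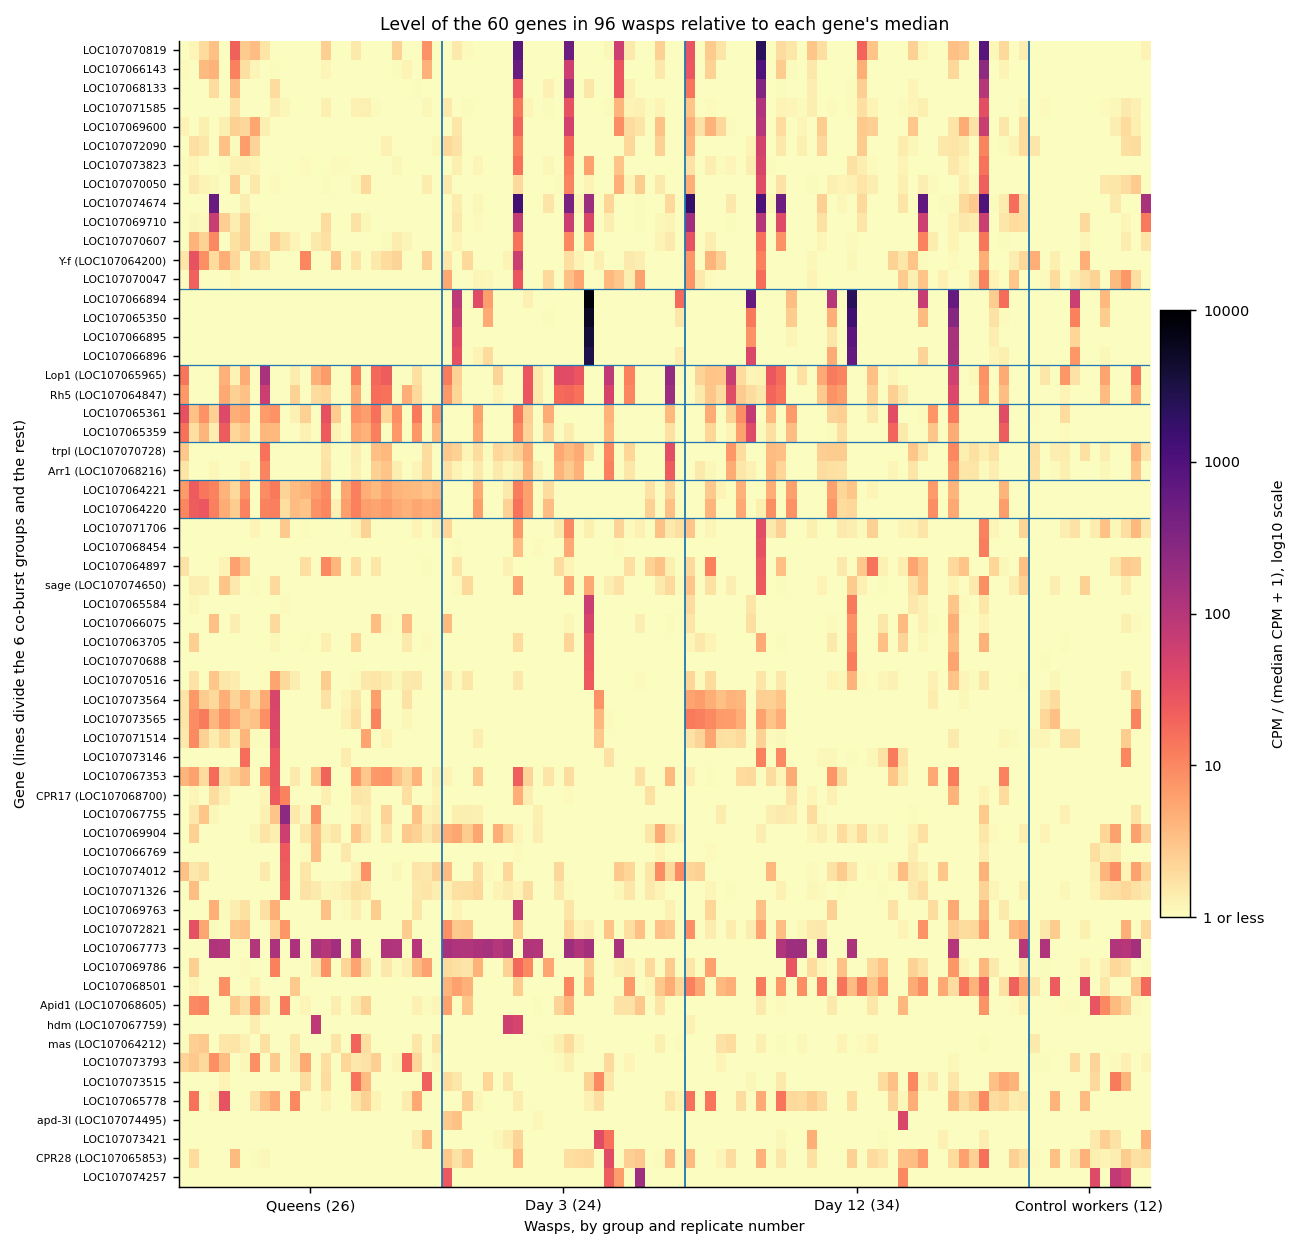
Level of the 60 genes (vertical) in the 96 wasps (horizontal, by group and replicate number), as CPM divided by the gene's median CPM plus 1 on a log10 colour scale. Dark columns mark the wasps in which many genes were in burst, such as day 12 wasp 8 with 19 genes and day 3 wasp 15 with 12.

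Day 12 wasp 8 was in burst for 19 genes and held the highest value of 12. Day 3 wasp 8 was in burst for 19, day 12 wasp 30 for 16, day 3 wasp 13 for 14, day 3 wasp 15 for 12 and queen 10 for 10. Their libraries ranked 1, 37, 6, 15, 63 and 81 of 96 by total counts. Each of these 6 wasps came from a different nest, and the 5 with a known age were 16, 30, 21, 9 and 12 days old. Whether depth, nest or age had a part in these bursts was not tested.

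Queens carried 80 bursts, day 3 wasps 89, day 12 wasps 106 and control workers 19. These were 27.2%, 30.3%, 36.1% and 6.46% of the bursts, where the groups made up 27.1%, 25.0%, 35.4% and 12.5% of the wasps. The median wasp had 2 bursts in queens, day 3 and day 12 wasps, and 1.5 in control workers. The groups differed in their tails: the highest number was 10 in queens, 19 in day 3 wasps, 19 in day 12 wasps and 3 in control workers. Bursts that occurred in a single group were seen for 11 genes in queens, 5 in day 3 wasps, 5 in day 12 wasps and 0 in control workers. As the genes were chosen on these values and control workers were the smallest group, the difference between groups was not tested. The gene LOC107067773, described below, accounted for 36 of the bursts, and without it 67 wasps had a burst.

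**Figure D2:**
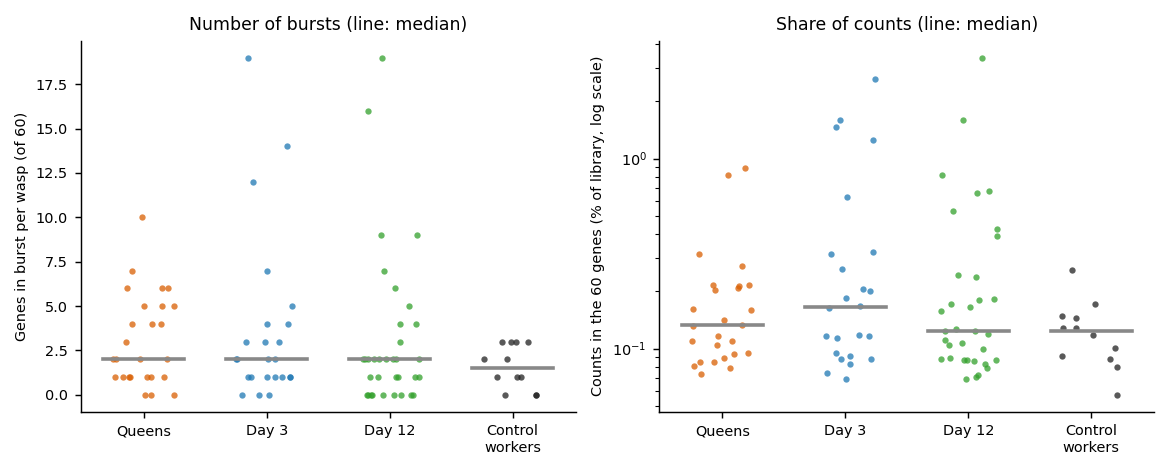
Number of the 60 genes in burst (left) and percent of a library's counts in the 60 genes (right, log scale) for each wasp, by group, with the group median as a line. Control workers reach 3 genes in burst and 0.259% of counts, and the highest day 12 wasp 19 genes and 3.4%.

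The 60 genes took 0.0733% to 0.896% of the counts in queens (median 0.133%), 0.0695% to 2.61% in day 3 wasps (0.166%), 0.0695% to 3.4% in day 12 wasps (0.123%) and 0.0571% to 0.259% in control workers (0.123%). The medians were close and the ranges overlapped, and only the upper ends differed. In bulk tissue, more cells of a type and more RNA per cell cannot be told apart, here or below.

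Genes were linked where they shared at least 3 burst wasps and a Jaccard index (shared over joint burst wasps) of at least 0.5. This joined 25 genes in 6 groups, of which 2 had at least 3 genes. The values that linked them also chose them, so that the groups are descriptions.

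The largest group had 13 genes, and 4 wasps were in burst for most of them: day 12 wasp 8 for 13, day 12 wasp 30 and day 3 wasp 8 for 12 each, and day 3 wasp 13 for 10. The summed level of the 13 genes was 41021.5 CPM in day 12 wasp 8, 15630.9 in day 12 wasp 30, 12697.1 in day 3 wasp 8 and 11057.4 in day 3 wasp 13. The 80 wasps with no burst of these genes lay between 192 and 406 CPM (median 266). The 4 carriers came from nests 14, 65, 47 and 51. Other wasps sampled from the same nests did not share the state: among them, the most genes of the group in burst were 2, in day 12 wasp 10 of nest 14.

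The most abundant gene of the group was LOC107071585 (regucalcin-like, named after a calcium-binding protein of animal cells). It had 138 to 345 CPM in queens (median 196), 159 to 6027.8 in day 3 wasps (208), 139 to 22621.4 in day 12 wasps (203) and 132 to 291 in control workers (202). The 4 carriers had 22621.4, 6808.6, 6027.8 and 2785.6 CPM, the next were day 3 wasp 18 at 851 and day 12 wasp 1 at 624 CPM, which are below the limit of a burst, and the group medians were close. LOC107073823, which has no product name, behaved alike from a lower base, with 20.7 to 40.4 CPM in queens, 24.5 to 473 in day 3 wasps, 22.9 to 1430.8 in day 12 wasps and 18.8 to 32.3 in control workers. Its 4 burst wasps were the same 4.

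The other genes of the group were low in most wasps outside the carriers. LOC107070819 had 0.256 to 81.8 CPM in queens (median 2.74), 0.207 to 3029.2 in day 3 wasps (2.31), 0.0 to 8714.3 in day 12 wasps (4.44) and 0.789 to 4.68 in control workers (2.41). LOC107068133 encodes a hyaluronidase, an enzyme that cuts hyaluronan and is a common venom component of wasps and bees. It had 0.378 to 11.5 CPM in queens (median 2.15), 0.809 to 525 in day 3 wasps (2.41), 0.978 to 1074.2 in day 12 wasps (2.47) and 1.49 to 3.34 in control workers (2.19). LOC107066143 reached 2140.4 CPM, LOC107069600 516, LOC107070050 (a long non-coding RNA) 320, LOC107064200 (Y-f, of the yellow family) 217, LOC107072090 159 and LOC107070047 99.9. Y-f and LOC107070047 were second highest in queen 2, at 104 and 76.7 CPM. Y-f was also in burst in queen 13 at 34.8 CPM, and not in the carriers day 12 wasp 30 and day 3 wasp 13. LOC107070819, LOC107066143 and LOC107068133 were also in burst in day 3 wasp 18, which was 3 days old, at 230, 61.3 and 88.9 CPM.

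A subset of the group reached further. LOC107074674 (circumsporozoite protein-like, a name taken from a malaria parasite protein) had 0.563 to 1849.0 CPM in queens (median 1.58), 0.552 to 4181.0 in day 3 wasps (2.6), 0.627 to 5867.3 in day 12 wasps (3.4) and 0.971 to 416 in control workers (1.59). LOC107069710, which encodes general odorant-binding protein 56a, had 0.472 to 292 CPM in queens (4.08), 0.376 to 316 in day 3 wasps (1.7), 0.722 to 715 in day 12 wasps (3.77) and 0.582 to 57.3 in control workers (3.47). The highest wasp for both was day 12 wasp 1, and 10 wasps were in burst for both, among them queen 4, day 12 wasps 10 and 24, day 3 wasp 15 and control worker 12. LOC107070607 joined them in 5 wasps and was also highest in day 12 wasp 1, at 224 CPM. The 11 wasps in burst for LOC107074674 came from 10 nests and from every group.

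Among genes outside the 60, those whose log2(CPM + 1) followed the mean of the group most closely over the 96 libraries were LOC107066307 (Pearson r = 0.85), the odorant-binding protein gene Obp1 (0.84), Hbg3 (0.84), LOC107074228 (0.82) and LOC107065219 (0.82). These coefficients rest on the same few libraries as the bursts. LOC107063902, a glucose dehydrogenase gene that was set aside from the list, had the same 4 wasps as its highest, up to 140801.5 CPM in day 12 wasp 8. Hbg3 was also set aside. It reached 29416.9 CPM in day 12 wasp 8, and 3 of the 4 carriers were among its 4 highest wasps. A list of 36 genes with the names of digestive and gland enzymes contained LOC107063902 and 3 of the 60 genes, but not Hbg3. The other 32 summed to between 1112.8 and 1818.2 CPM in all wasps, with 1477.6 in day 12 wasp 8, 1818.2 in day 12 wasp 30, 1305.6 in day 3 wasp 8 and 1527.0 in day 3 wasp 13. These sums ranked 29, 1, 74 and 22 of 96, and 2 of the 32 genes had their highest value in a carrier. With LOC107063902 the list ranked the 4 carriers 1 to 4, and its part in the bursts was not tested.

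Day 12 wasp 8 held further highest values outside the group. Its level of LOC107071706 was 748 CPM and that of LOC107064897 was 190 CPM. LOC107068454, a second glucose dehydrogenase gene, reached 57.9 CPM there and 23.0 in day 12 wasp 30. LOC107074650 (sage), in *Drosophila* a transcription factor of the salivary gland, was at 84.0 CPM in day 12 wasp 8 and 31.4 in day 12 wasp 30, and was in burst only in day 12 wasp 8. For LOC107071706, LOC107068454 and sage the 4 highest wasps were the same 4 carriers.

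**Figure D3:**
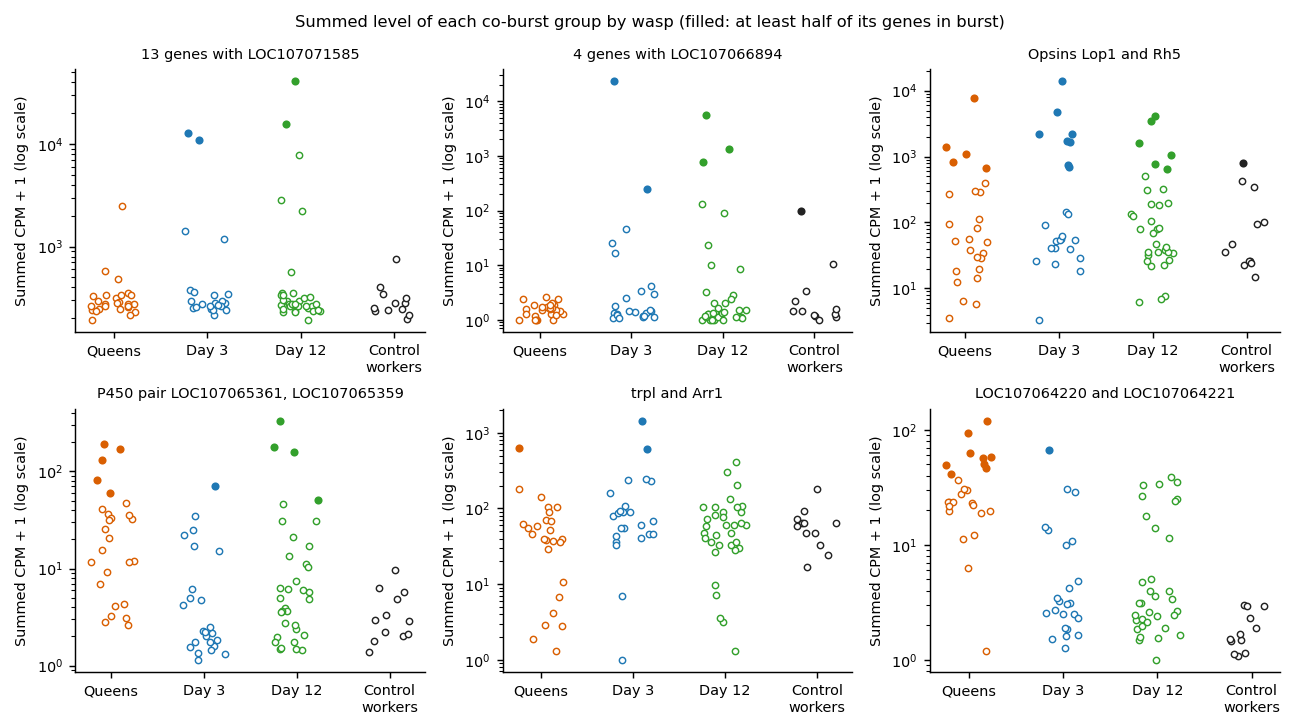
Summed CPM plus 1 (log scale) of the genes of each co-burst group for each wasp, by group, with filled points where at least 50% of the genes are in burst. The 4 carriers of the 13 genes lie at 11057.4 CPM or more, and the wasps without a burst of these genes at or below 406 CPM.

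The other large group had 4 genes, LOC107066894 (RNA polymerase II subunit RPB1-like), LOC107065350, LOC107066895 and LOC107066896 (translation initiation factor IF-2-like). None of the 4 had an entry in the reference table. They had the highest ratios of the list. LOC107066894 had 0.0 to 0.855 CPM in queens (median 0.18), 0.0 to 10117.5 in day 3 wasps (0.113), 0.0 to 2599.5 in day 12 wasps (0.103) and 0.0 to 76.2 in control workers (0.213). LOC107065350 had 0.0 to 0.284 CPM in queens, 0.0 to 5312.2 in day 3 wasps, 0.0 to 1385.7 in day 12 wasps and 0.0 to 11.3 in control workers, with a median of 0.0 in all groups but day 3, where it was 0.0716. No queen was in burst for any of the 4 genes.

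All 4 genes were in burst in day 3 wasp 15, day 12 wasp 17, day 12 wasp 27 and day 3 wasp 2, with summed levels of 23256.1, 5610.9, 1325.6 and 249 CPM. These wasps came from nests 52, 42, 65 and 38. Within the sum, the share of LOC107066894 was 43.5%, 46.3%, 55.1% and 40.4% in the 4 wasps, and that of LOC107065350 was 22.8%, 24.7%, 21.9% and 26.9%. The share of LOC107066895 was 19.3%, 15.8%, 11.6% and 17.8%, and that of LOC107066896 was 14.4%, 13.1%, 11.4% and 14.8%. LOC107066894 was the largest and LOC107066896 the smallest of the 4 in each of these wasps. Day 12 wasps 7 and 15 had another composition, with 90.9% and 90.6% of 778 and 129 CPM in LOC107066894.

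Day 3 wasp 15 was also the highest wasp for 5 further genes, with day 12 wasps 17 and 27 among the 5 highest. LOC107065584, an inducible metalloproteinase inhibitor, had 85.3 CPM in day 3 wasp 15, 17.3 in day 12 wasp 17 and 3.99 in day 12 wasp 27, and at most 2.54 in the other wasps. Such an inhibitor is known from the haemolymph of the wax moth *Galleria mellonella* after immune challenge. LOC107070688 had 53.2, 23.3 and 11.0 CPM in these 3 wasps and at most 1.98 elsewhere. LOC107066075 had 151, 26.4 and 14.8 CPM in the same order. LOC107063705 reached 88.7 and LOC107070516 601 CPM in day 3 wasp 15, and both were next highest among day 12 wasps in wasp 17, at 27.7 and 106 CPM. The order of the 3 wasps was the same for these genes as for the 4 polymerase-like and unnamed genes.

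Among genes outside the 60, LOC107063852 (Pearson r = 0.81), Y-y of the yellow family (0.79), LOC107066273 (0.66), LOC107067818 (0.43) and LOC107070690 (0.42) followed the mean of the 4 genes most closely, and the first 4 of them were also highest in day 3 wasp 15. The first 3 reached no more than 22.2, 3.32 and 5.95 CPM.

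Photoreceptor genes formed 2 pairs. LOC107065965 (Lop1) encodes a long-wavelength opsin, and LOC107064847 (Rh5) an opsin that in *Drosophila* responds to blue light. Lop1 had 2.58 to 7353.2 CPM in queens (median 49.2), 2.33 to 12986.5 in day 3 wasps (56), 4.94 to 3931.4 in day 12 wasps (67.9) and 13.5 to 764 in control workers (37.5). It spanned a range of 5580.6 times between the lowest and the highest wasp, and 20 wasps were in burst. Rh5 had 0.0 to 335 CPM in queens (median 6.62), 0.0 to 916 in day 3 wasps (2.52), 0.0 to 222 in day 12 wasps (7.7) and 0.227 to 27 in control workers (3.13). Its 14 burst wasps were all among the 20 of Lop1. Across the 96 libraries the log2(CPM + 1) of both correlated with r = 0.94, a description over libraries that share the same bursts.

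The other pair was LOC107070728 (trpl), a light-gated channel of fly photoreceptors, and LOC107068216 (Arr1), an arrestin that ends the response of rhodopsin. Both were in burst in day 3 wasp 23, queen 9 and day 3 wasp 17, with 449, 194 and 134 CPM of trpl and 972, 426 and 467 CPM of Arr1. These 3 wasps were also the highest for Lop1. The 7 photoreceptor genes outside the list (Lop2, Uvop, trp, ninaC, chp, Arr2 and Hdc) summed to 17216.2 CPM in day 3 wasp 23 and 9325.3 in queen 9, the highest values of all wasps. The level of Arr1 followed that sum with r = 0.94, trpl with 0.88, Lop1 with 0.57 and Rh5 with 0.43. Of the 20 burst wasps of Lop1, 12 were among the 20 wasps highest for the 7 genes and 8 were not. The 20 had a median sum of 5553.6 CPM, against 2833.4 in the other 76 wasps, and the part of photoreceptor cells in the bursts was not tested.

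Lop1 bursts occurred in 5 queens, 8 day 3 wasps, 6 day 12 wasps and 1 control worker, in 14 nests with at most 3 per nest. The levels of Lop1 overlapped between all groups, and the test between queens and control workers gave a log2 fold change of 1.66 (SE 1.01) with an adjusted p of 0.232 (edgeR quasi-likelihood test, Benjamini-Hochberg).

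Some genes were in burst mainly in queens or in older wasps. LOC107064220 and LOC107064221 have adjacent identifiers and no descriptive name. LOC107064220 had 0.0 to 51.6 CPM in queens (median 11.8), 0.0 to 29.2 in day 3 wasps (0.766), 0.0 to 17.1 in day 12 wasps (0.376) and 0.0 to 0.923 in control workers (0.116). LOC107064221 had 0.202 to 72.6 CPM in queens (13.7), 0.085 to 37.0 in day 3 wasps (1.5), 0.0 to 20.9 in day 12 wasps (1.44) and 0.0 to 1.97 in control workers (0.5). In both, 25 of 26 queens lay above every control worker, and the exception was queen 8. Of the 10 wasps in burst for LOC107064220, 9 were queens and the other was day 3 wasp 8, at 30 days among the oldest.

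The cytochrome P450 4C1-like genes LOC107065361 and LOC107065359 formed a further pair. Family 4 enzymes of insects oxidise fatty acids, hydrocarbons and hormones. LOC107065361 had 0.662 to 105 CPM in queens (median 13.3), 0.0 to 35.8 in day 3 wasps (0.433), 0.0 to 197 in day 12 wasps (1.53) and 0.143 to 5.01 in control workers (0.82). LOC107065359 had 0.598 to 85.6 CPM in queens (8.72), 0.147 to 33.3 in day 3 wasps (0.814), 0.0788 to 130 in day 12 wasps (2.43) and 0.149 to 3.69 in control workers (1.14). Both were highest in day 12 wasp 7 and were in burst in queens 1, 5, 15 and 20 and day 12 wasps 21 and 32. No control worker was in burst for either.

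Queens 10 and 11 held bursts of their own. Queen 11 was the single burst wasp of 5 genes. LOC107069904 had 3335.5 CPM there and 352 in the next wasp, LOC107071326 had 2609.7 against 456 or less, LOC107067755 had 1583.9 against 48.7, LOC107074012 (kynurenine/alpha-aminoadipate aminotransferase, of tryptophan and lysine breakdown) had 276 against 111, and LOC107066769 had 50.5 against 6.99. The same queen ranked 96 of 96 for the haemocyte marker, 95 of 96 for muscle genes and 5 of 96 for cuticle genes. Queen 10 was highest for LOC107073564, LOC107073565, LOC107071514, LOC107073146 (a long non-coding RNA), LOC107067353 and LOC107068700 (CPR17, a cuticle protein of the Rebers and Riddiford family), at 110, 70.8, 256, 62.0, 128 and 104 CPM. It had the lowest sum of the 7 photoreceptor genes of all wasps, 204 CPM. None of these genes was linked to a co-burst group, but a link needed at least 3 shared burst wasps. The 5 genes of queen 11, LOC107073564 and LOC107071514 had 1 burst wasp each and CPR17 had 2, so that these could not be linked.

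Other genes with a single burst wasp were LOC107072821 in queen 2 at 432 CPM, LOC107064212 (mas, in *Drosophila* an inactive serine protease that acts in muscle attachment) in queen 18 at 91.5 CPM, LOC107073793 (extensin-like) in queen 23 at 81.7 CPM, and LOC107069763 in day 3 wasp 8 at 353 CPM. LOC107069786 resembles methyl farnesoate epoxidase, the P450 that in many insects makes juvenile hormone from its precursor. It was in burst in day 12 wasp 11, day 3 wasp 8 and queen 10, at 1469.1, 918 and 574 CPM, with a median of 50.5 CPM over all wasps. LOC107068605 (Apid1) encodes an apidaecin-like antimicrobial peptide and was highest in control worker 7, 1 day old, at 182 CPM, followed by queen 11 at 78.6 and queen 3 at 65.9. LOC107073515 reached 70.2 CPM in queen 25 and was in burst in queen 18 and control worker 9 of the same nest 54.

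Bursts followed nests in a few genes. LOC107067759 (hdm, in *Drosophila* a protein of meiotic recombination) was in burst in 3 wasps, all of nest 47: queen 14 at 97.7 CPM, day 3 wasp 7 at 67.5 and day 3 wasp 8 at 57.4. The other 3 wasps of nest 47 had 0.251, 0.367 and 0.0 CPM, and no wasp of another nest exceeded 1.62. LOC107073421 was in burst in the only 2 wasps of nest 57, day 3 wasps 16 and 17, at 58.8 and 23.8 CPM, and no other wasp exceeded 7.37. Of the 5 wasps in burst for LOC107065778, 3 were of nest 3. It encodes a fatty acyl-CoA reductase 1-like enzyme, of a family that makes fatty alcohols for waxes and pheromones.

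LOC107073565 and LOC107073564, which peaked in queen 10, also varied with the nest. In nest 3, queen 2 and day 12 wasps 1 to 3 had 15.5 to 22.2 CPM of LOC107073565. Queen 20 and control worker 11 of nest 58 both had 17.8 CPM, and the 3 day 12 wasps of nest 4 had 8.11 to 11.5 CPM. In nest 67 the queen and 4 day 12 wasps had 0.0 to 0.971 CPM, and in nest 69 the queen and 4 day 3 wasps had 0.0 to 1.88 CPM. The queen and the control worker of nest 28, by contrast, were apart, the lower at 0.582 and the higher at 14.2 CPM. Over the 25 nests with at least 2 wasps, the intraclass correlation of log2(CPM + 1) by nest was 0.77 for LOC107073565, 0.63 for LOC107071514, 0.63 for LOC107073421, 0.61 for LOC107073564 and 0.55 for LOC107073515. These 5 genes are 8.33% of the 60, and 0.834% of the 10794 genes tested exceeded 0.5, while the median was -0.03 over the 60 genes and 0.11 over all. Nests also differ in group and treatment, and what the wasps of a nest shared was not tested.

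LOC107067773 was either absent or present. In 60 libraries it had no count, although the smallest of these libraries held 9504311 counts, of which 3 counts would have been 0.316 CPM. In the other 36 it had 886 to 3175 counts, or 95.6 to 169 CPM (median 113), a range of 1.76 times. It was present in 12 of 26 queens (46.2%), 13 of 24 day 3 wasps (54.2%), 7 of 34 day 12 wasps (20.6%) and 4 of 12 control workers (33.3%). Of the 25 nests with at least 2 wasps, 15 held wasps of both states. No other gene of the table had 0 counts in at least 20 libraries and 50 CPM or more in at least 20 others. The gene had no entry in the reference table.

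LOC107074257, a dirigent protein 10-like gene named after a plant protein, marked the youngest wasps. The 8 wasps of at most 4 days had 89 or more counts each, and 6.7 to 167 CPM (median 32.1): control workers 7, 9 and 10, day 3 wasps 1, 17, 18 and 20, and day 12 wasp 22. The next youngest were 7 days old. The 62 wasps of 7 days or more had at most 1.03 CPM and the 26 queens at most 0.203, and 66 of these 88 libraries had no count. The age limit was chosen after these values were seen. Of the 10794 genes tested, 1 other gene, Col4a1 for a collagen IV chain, was higher in each of the 8 wasps than in each of the 62, and 0 genes were lower in each.

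**Figure D4:**
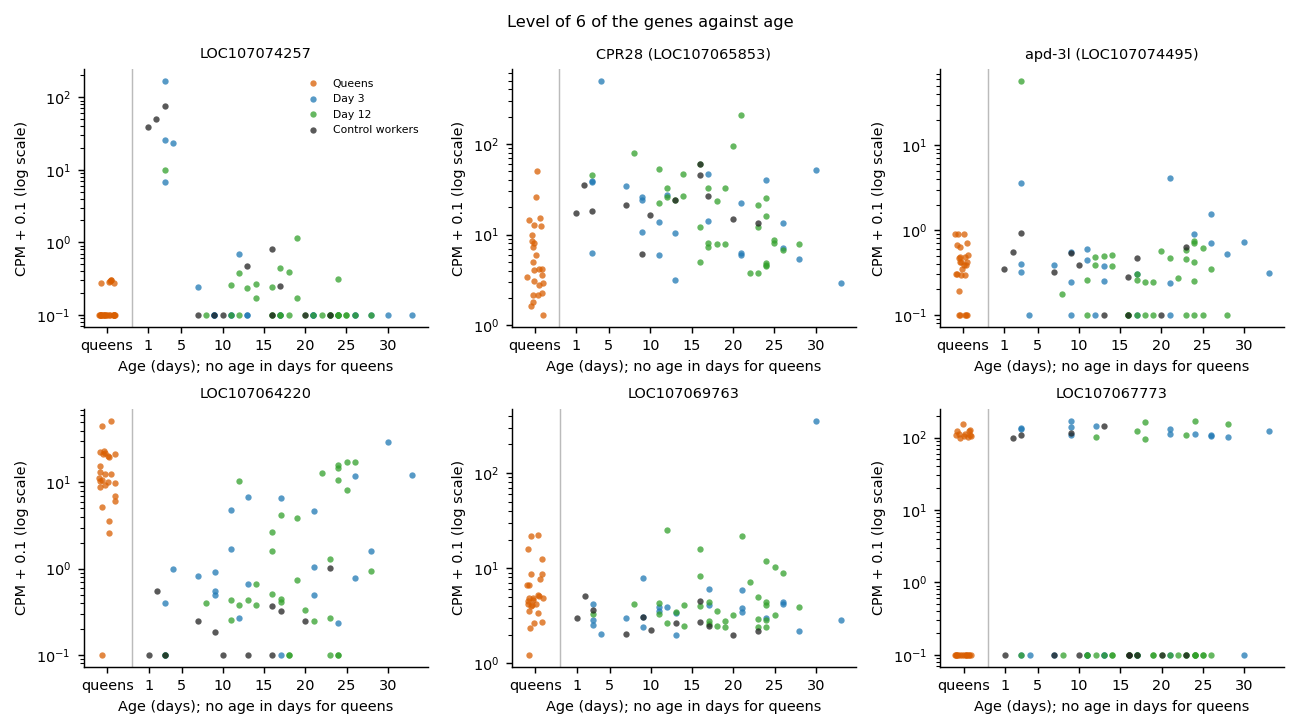
CPM plus 0.1 (log scale) of 6 genes against age in days, with queens, which had overwintered and have no age in days in the labels, to the left of the grey line. LOC107074257 separates the 8 wasps of at most 4 days, LOC107064220 is high in queens and some older wasps, and LOC107067773 is at 0 or at 95.6 CPM and more at any age.

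In the age fit, within the 58 day 3 and day 12 wasps and with day as a covariate, LOC107074257 had a log2 slope of -0.58 per day (SE 0.0479, adjusted p = 1.76e-13). In all, 10 of the 60 genes changed with age (16.7%), 6 rising and 4 falling, where 8.23% of the 10794 genes tested did, 3.18% rising and 5.05% falling. The 60 genes were chosen on values that enter this fit, so their share is a description. The slope of LOC107074257 was -0.46 (adjusted p = 4.02e-12) without day 3 wasp 20, its highest library. LOC107064220 and LOC107064221 rose with age, by 0.18 and 0.14 per day on the log2 scale (SE 0.0377 and 0.0286, adjusted p = 0.000577 and 0.000483). LOC107067353 rose by 0.08 per day (adjusted p = 0.028). LOC107066075 fell by 0.11 per day (adjusted p = 0.0443), and by 0.07 without day 3 wasp 15 (adjusted p = 0.0173). With nest as a random effect in limma voom these last slopes were 0.07 (adjusted p = 0.149) and -0.06 (adjusted p = 0.199). Apart from the limma voom slopes, these are edgeR values with Benjamini-Hochberg adjustment over all genes tested.

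In the other 5 genes few wasps were high. The slope of hdm was 0.16 per day (adjusted p = 0.0432), and its only burst wasps with an age were 2 day 3 wasps of nest 47, aged 21 and 30 days. The slope of LOC107074495 (apd-3l, spidroin-1-like, with the symbol of a bee cuticle protein, apidermin) was -0.17 (adjusted p = 0.000388) with day 12 wasp 22, 3 days old and at 57 CPM, and 0.02 without it (adjusted p = 0.83). The slope of LOC107065853 (CPR28, flexible cuticle protein 12-like) was -0.10 (adjusted p = 0.0143), and -0.04 without day 3 wasp 17, 4 days old and at 495 CPM (adjusted p = 0.361). Without day 3 wasp 8, LOC107069763 had a slope of 0.0 (adjusted p = 0.921) in place of 0.13, and without day 12 wasp 11, LOC107069786 had 0.05 (adjusted p = 0.193) in place of 0.09.

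Differences between groups were tested for all genes in 1 fit of the 96 libraries with edgeR's quasi-likelihood test. The 60 genes were chosen for high values in these libraries. Their highest value lay in a queen for 19 genes, in a day 3 wasp for 19, in a day 12 wasp for 20 and in a control worker for 2. That choice can itself raise the shares called and the median changes, so these stand beside the values of all genes as descriptions only. A single burst can set a group's mean. Each call is therefore given with its value or outcome without the library of the gene's highest CPM. This was done where that library belongs to the groups compared. Between queens and control workers, 18 of the 60 genes differed (30.0%), 14 higher and 4 lower in queens, where 22.9% of the 10794 genes did, 11.8% higher and 11.1% lower. The median log2 fold change was 0.83 over the 60 genes and -0.00844 over all. It was not particular to queens, as the 60 genes had a median of 1.35 at day 3 and 1.28 at day 12 against control workers. In 13 of the 18 the highest library was a queen or a control worker, and 8 of these calls held without it. In the other 5 it was a day 3 or day 12 wasp, and leaving it out tests nothing about the difference.

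LOC107064220 was higher in queens by a log2 fold change of 6.21 (SE 1.02, adjusted p = 2.77e-06) and by 6.07 without queen 3, and LOC107064221 by 4.81 (SE 0.786, adjusted p = 2.34e-06) and by 4.64 without queen 2. The P450 genes LOC107065361 and LOC107065359 were higher by 4.02 (SE 1.02, adjusted p = 0.00215) and 3.51 (SE 0.876, adjusted p = 0.00179), and their highest library was a day 12 wasp. LOC107067353, of unknown function, was higher by 3.64 (SE 0.69, adjusted p = 4.27e-05), and the call held without queen 10, its highest library. It had 1.96 to 128 CPM in queens (median 14.4) and 0.132 to 3.75 in control workers (1.84). CPR17, LOC107073793, mas and LOC107067755 were higher by 1.98, 1.5, 1.48 and 3.88, and by 1.27, 1.13, 0.78 and 1.01 without their highest queens, with adjusted p of 0.0079, 0.00212, 0.0227 and 0.0163. With nest as a random effect in limma voom, LOC107067755 was at 1.04 (adjusted p = 0.0581). Apart from that limma voom value, adjusted p-values are those of edgeR after Benjamini-Hochberg adjustment.

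LOC107074257 had the largest difference among the 18 genes called, lower in queens with a log2 fold change of -8.01 (SE 1.23, adjusted p = 5.88e-07). Among control workers it was high only in the 3 of at most 3 days, and the median of control workers was 0.0743 CPM. LOC107068501, an ejaculatory bulb-specific protein 3-like gene of the chemosensory protein family, had 0.0 to 121 CPM in queens (median 1.62), 0.152 to 143 in day 3 wasps (11.9), 0.372 to 302 in day 12 wasps (62.9) and 0.531 to 527 in control workers (18.1). It was lower in queens by -3.46 (SE 0.719, adjusted p = 0.000181), and by -2.80 without control worker 6 (adjusted p = 0.00268), but the call ended with nest as a random effect (-3.6, SE 1.62, adjusted p = 0.0914 in limma voom). None of its 12 burst wasps was a queen. CPR28 was lower in queens by -1.61 (SE 0.516, adjusted p = 0.016), with medians of 4.08 CPM in queens and 19.6 in control workers. The difference of LOC107066894, -5.09 (SE 1.89, adjusted p = 0.0408), stood beside a control worker at 76.2 CPM (control worker 5), while the next had 4.44. It was -1.62 (adjusted p = 0.409) with DESeq2 and -1.19 (adjusted p = 0.604) with nest as a random effect in limma voom.

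The 5 calls lost without the highest library were those of hdm (log2 fold change 5.25, and 1.32 without queen 14, adjusted p = 0.407), LOC107073564 (2.18, and 1.29 without queen 10, adjusted p = 0.156), LOC107065778 (1.74, and 1.19 without queen 5, adjusted p = 0.14), LOC107071514 (1.42, and 0.53 without queen 10, adjusted p = 0.257) and LOC107066769 (1.29, and 0.08 without queen 11, adjusted p = 0.895). In each of the 5, the call ended in edgeR without that single queen.

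**Figure D5:**
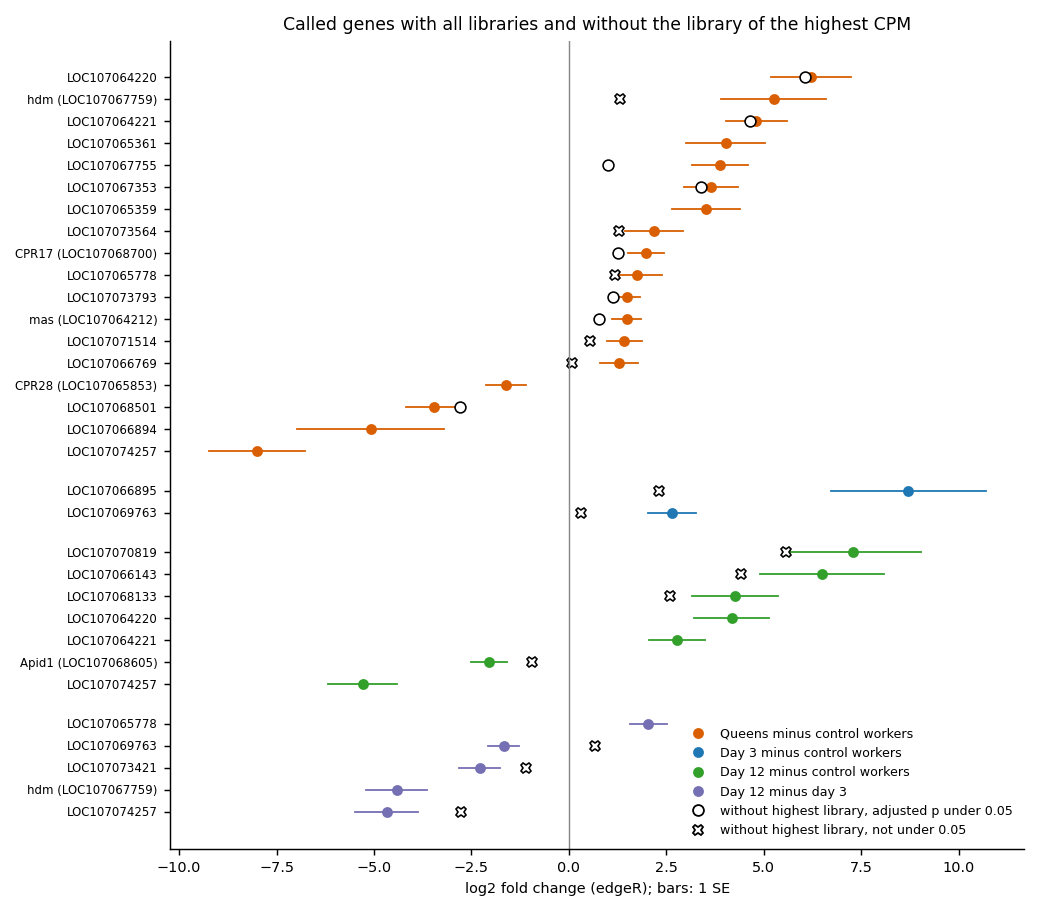
Log2 fold changes (coloured points, bars 1 SE) of the genes called in 4 comparisons by edgeR, and the value without the library of the gene's highest CPM (open circles where the adjusted p stays under 0.05, crosses where it does not), drawn only where that library is in the groups compared. In queens minus control workers 8 of 13 such calls are kept, and in day 3 minus control workers 0 of 2.

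After queen removal, few of the 60 genes differed from control workers. At day 3, 2 did (3.33%), both higher, where 0.0926% of the 10794 genes did, 0.0371% higher and 0.0556% lower. The choice of the 60 genes on these values enters their share. LOC107066895 had a log2 fold change of 8.71 (SE 1.98, adjusted p = 0.0459), and 2.30 without day 3 wasp 15 (adjusted p = 0.429). LOC107069763 had 2.65 (SE 0.613, adjusted p = 0.0459), and 0.31 without day 3 wasp 8 (adjusted p = 0.7). Neither call held. LOC107064220 was at 4.13 (SE 0.979) with an adjusted p of 0.0507 in edgeR. Without day 12 wasp 8, whose library enters the shared estimate of spread, 7 of the 60 genes were called, and 22 over all genes.

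At day 12, 7 genes differed from control workers (11.7%), 5 higher and 2 lower, where 0.51% of the 10794 genes did, 0.324% higher and 0.185% lower. As the 60 genes were chosen on these values, the shares do not compare like with like. LOC107064220 and LOC107064221 were higher by log2 fold changes of 4.18 (SE 0.963, adjusted p = 0.0276) and 2.77 (SE 0.717, adjusted p = 0.0457), and their highest libraries were queens. LOC107070819, LOC107066143 and the hyaluronidase gene LOC107068133 of the 13-gene group were higher by 7.30, 6.49 and 4.26. Without day 12 wasp 8 they were at 5.57, 4.41 and 2.59, with adjusted p of 0.0654, 0.0916 and 0.15 in edgeR. LOC107074257 was lower by -5.29 (SE 0.885, adjusted p = 0.000145). It was high only in wasps of at most 4 days, and older wasps had at most 1.03 CPM. Ages differed between these groups, with medians of 11.5 days in control workers and 18.5 in day 12 wasps. The part of age in the call was not tested. Apid1 was lower by -2.05 (SE 0.467, adjusted p = 0.0276), and by -0.95 without control worker 7 (adjusted p = 0.381). Without day 12 wasp 8, 3 of the 60 genes were called, and 20 over all genes. With nest as a random effect in limma voom, 0 of the 60 genes were called at day 3 or day 12 against control workers, and 12 in queens. Over all genes, that fit called 0 at day 3, 0 at day 12 and 2630 in queens.

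Between day 12 and day 3 wasps, 5 of the 60 genes differed (8.33%), 1 higher and 4 lower at day 12, where 0.287% of the 10794 genes did, 0.111% higher and 0.176% lower. Here too the choice of the 60 genes enters their share. The days came from different nests, and with nest as a random effect in limma voom 0 of the 60 genes were called, and 0 of all genes (692 at an unadjusted p under 0.05). LOC107065778, the reductase, was higher by a log2 fold change of 2.04 (SE 0.484, adjusted p = 0.0311), with 2.7 to 142 CPM in day 12 wasps (median 17.0) and 1.15 to 22.3 in day 3 wasps (4.26). Its highest library was a queen, which is in neither group. The gene hdm was lower by -4.42 (SE 0.78, adjusted p = 0.000282), and its only burst wasps among these were the 2 of nest 47. LOC107074257 was lower by -4.68 (SE 0.813, adjusted p = 0.000253), and by -2.76 without day 3 wasp 20 (adjusted p = 0.11). At most 4 days old were 4 of the 24 day 3 wasps and 1 of the 34 day 12 wasps. LOC107073421 was at -2.29 and, without day 3 wasp 16, at -1.11 (adjusted p = 0.37). LOC107069763 was at -1.67, and at 0.67 without day 3 wasp 8 (adjusted p = 0.198). All adjusted p-values are from edgeR.

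By name, the 60 genes fell into several families without filling any. Gene lists were set as patterns on symbols and product names. They held 3 of 25 tested genes of cuticle proteins (12.0%), 2 of 8 odorant carriers (25.0%), 3 of 34 cytochrome P450 genes (8.82%), 3 of 36 digestive and gland enzymes (8.33%), 1 of 9 immune genes (11.1%) and 1 of 29 genes of hydrocarbon and fatty acid synthesis (3.45%). The 60 genes were 0.556% of all genes tested. None of the 16 histone, 12 heat shock, 75 transporter, 11 storage and yolk or 10 transposon-derived genes was among them, though the hexamerin genes Hex70a, HEX70b and Hex70c, of storage proteins, were among the genes set aside. Between queens and control workers, where 11.8% of all genes were higher and 11.1% lower in queens (edgeR), 7 of the P450 genes were higher and 1 lower, and 12 of hydrocarbon and fatty acid synthesis higher and 0 lower. The counts were 11 higher and 2 lower for histones, 3 and 7 for cuticle proteins, 4 and 7 for digestive and gland enzymes, 6 and 13 for transporters, and 2 and 2 for odorant carriers. They were 2 and 0 for immune genes, 2 and 5 for storage and yolk, 3 and 2 for heat shock and 2 and 4 for transposon-derived genes.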

How the data were processed

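Brain RNA of 96 females was sequenced as paired reads. The authors removed ribosomal reads with SortMeRNA, trimmed with Trimmomatic, mapped with STAR and quantified genes with StringTie2. The submitters' processing notes name Trimmomatic 0.36 and STAR 2.7, and the study's reporting summary lists a later Trimmomatic. The deposited table holds whole-number counts per gene, which are not normalized. Rows that repeat a gene ID were summed, giving 11140 genes, and the row without a gene name (0.0216% to 0.0706% of counts) was left out. No 2 libraries were the same (highest correlation 0.9827).

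Groups follow the labels. Nests follow the wasps' names, except that day 3 wasp 1, named for nest 28, was placed in nest 38 from the study's list. TMM factors, CPM and tests were computed with edgeR 4.0.16 in R 4.3.3, by the quasi-likelihood test with Benjamini-Hochberg adjustment over 10794 genes with more than 20 counts summed over the libraries of at least 1 group, and a threshold of 0.05. All 60 genes passed this filter, some only through the group where they were high. Alternatives used DESeq2 1.42.0 and limma 3.58.1, and other filters, scalings and left-out libraries. P-values measure the spread between these wasps. The main fits left out the nest, so that wasps of the same nest were treated as independent. With nest as a random effect in limma voom, 15 of the 42 calls were kept, 25 were lost and 2 reversed. On simulated queens and control workers, 45 of 50 genes raised 2.0-fold and 50 of 50 raised 4.0-fold were called. Of genes lowered to 0.5 and 0.25 times, 40 of 50 and 47 of 50 were called, with 14 calls among 10594 unchanged genes. The changed genes were drawn at random from all genes, and wasps were simulated as independent, without nests. Recovery for the 60 genes was therefore not tested.

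The members and gene lists were chosen with earlier results of these data known. Named in full were the 15 genes of highest ratio, up to 8 by ratio of each co-burst group of at least 3 genes, and up to 10 by p called per comparison and direction. Other genes were named more briefly.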

Additional observations from a re-analysis of the deposited data

Results flagged for a closer look

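The effects of day 3 and day 12 against control workers differed for 5 of the 60 genes, by the test of the difference itself (day 12 minus day 3, edgeR with Benjamini-Hochberg adjustment, log2 scale). In that test 0.287% of the 10794 genes differed, and the 60 genes were chosen on values that enter it. The log2 fold changes of the 5 genes were -4.68 for LOC107074257, -4.42 for LOC107067759 (hdm), -2.29 for LOC107073421, 2.04 for LOC107065778 and -1.67 for LOC107069763. The burst wasps of hdm and LOC107073421 among these animals were 2 each, of nest 47 and nest 57. What the day and the nest each contributed cannot be told apart, since day 3 and day 12 wasps came from different nests. The days also differed in age, with medians of 13 days at day 3 and 18.5 at day 12. LOC107074257 was high only in the youngest wasps, and the part of age in its difference was not tested. For LOC107074257, LOC107073421 and LOC107069763 the call ended without the highest library, and LOC107069763 then stood at 0.67. The difference of hdm was 0.03 with DESeq2, and with nest as a random effect in limma voom none of the 5 was called (0 of all genes, 692 at an unadjusted p under 0.05).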

How the results depend on the processing

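The list shared 42 or more of the 60 genes under 7 of 8 other selections, and 34 when chosen on queens and control workers alone. With a burst at 5 times, 476 bursts were counted (queens 147, day 12 wasps 172, control workers 29), and at 20 times 187 (queens 45, day 12 wasps 64, control workers 12), with 11 genes in groups of at least 3 in place of 17.

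The numbers of the 60 genes called under other settings were as follows, with the number over all genes beside them. Requiring more than 20 counts in every library of a group left 20 of the 60 genes to test and gave 6 calls in queens against control workers, 0 at day 3, 0 at day 12, 0 between the days and 4 with age. Over all genes these numbers were 2190, 0, 1, 6 and 825. Against control workers at day 3, no filter gave 4 (16 over all genes), DESeq2 gave 8 (71) and DESeq2 without replacement of outlying counts gave 14 (86). There, nest as a random effect gave 0 (0), and leaving out day 12 wasp 8 gave 7 (22). At day 12, DESeq2 gave 15 (205 over all genes), without replacement 20 (231), nest as a random effect 0 (0) and leaving out day 12 wasp 8 gave 3 (20). Between the days, nest as a random effect gave 0 (0 over all genes).

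With the replicate number as a block, 20 genes were called in queens, 0 at day 3, 3 at day 12, 1 between the days and 0 with age. Over all genes the calls in that fit were 2586, 27, 96, 18 and 19. The replicate numbers did not pair the samples. Deviations from the group means were correlated between same-numbered wasps and control workers. The medians were -0.0137 for queens, 0.0435 for day 3 and 0.0274 for day 12 wasps, and 2 or 3 of 12 pairs exceeded 0.1.

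Of 388 alternative values for the 42 calls, 297 kept direction and call, 84 lost the call and 7 reversed. Reversed were hdm between the days (0.03 with DESeq2) and with age (-0.01 with DESeq2 without replacement and with nest as a random effect), LOC107069763 between the days (0.67 with DESeq2, 0.09 with nest as a random effect and 0.67 without its highest library), and apd-3l with age (0.02 without its highest library). The causes were not tested.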
